A study of Mus musculus with 18 samples.

Results

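Kidney cortex of 12 MRL/lpr mice given an immunosuppressive drug was set against kidney cortex of 3 MRL/lpr mice given vehicle, to describe what the drugs had in common in a lupus-prone kidney. The 15 libraries, taken by their titles, are among 18 in the series. The remaining 3 came from healthy mice. The 12 treated mice fell into 4 arms of 3 mice each, given MMF, FK506, prednisone or a treatment named Multi-target. The labels give neither the doses, durations and ages nor the drugs that made up the Multi-target arm. All 15 of these mice, vehicle included, were MRL/lpr, a strain whose Fas gene, encoding a death receptor that removes activated lymphocytes, is disrupted by the lpr insertion, so that lymphocytes accumulate and a lupus-like nephritis develops. Healthy mice were Mrl/Mpj wild type, which carry an intact Fas gene, and also received vehicle. They differ from the treated mice in both genotype and drug. Total RNA was purified from frozen cortex and sequenced after a TruSeq library preparation, so each value is a whole-tissue level in which fewer cells of a type and less RNA per cell cannot be told apart.

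The drugs act at different points. Mycophenolate mofetil (MMF) blocks inosine monophosphate dehydrogenase and so starves dividing lymphocytes of guanine nucleotides, FK506 (tacrolimus) binds an immunophilin and inhibits calcineurin, which T cells need to activate NFAT, and prednisone activates the glucocorticoid receptor, which represses inflammatory genes in most cell types. In lupus nephritis immune complexes lodge in the glomerulus, macrophages and T cells enter the tissue, and their interferons induce antigen-presentation genes, GTPases and chemokines in kidney and immune cells alike. Tubule cells of an inflamed kidney are known to lose transporters and enzymes of fatty acid oxidation and gluconeogenesis and to express injury and matrix genes.

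The values are deposited log2 expression values, on which a difference of 1 is a 2-fold difference, for 15035 genes. In reads, the libraries summed to 28939852 in the shallowest, MMF mouse 27, and 41066966 in the deepest, prednisone mouse 23. No gene in the table had a maximum under 100 normalized reads, so genes low in every library were not tested, and a gene could be present through the group where it is high. Libraries differed within groups. On the first principal component, with 41.1% of the variance, vehicle mice 7, 17 and 36 lay at 17.2, 34.7 and 79.3, prednisone mouse 23 lay among them at 52.9, and the other 11 treated mice lay between -29.7 and 11.8. Other tissues were present in a few pieces. The 11 of 12 listed adipocyte markers in the table averaged 4.56 above the healthy mean in vehicle mouse 17, against -0.15 to 1.31 in treated mice and -0.08 and -0.17 in vehicle mice 7 and 36. The 7 of 10 urothelial markers averaged 3.41 in the same mouse, against -0.28 to 1.30 in treated mice, and the 10 of 12 adrenal markers averaged 3.58 in FK506 mouse 12. The adipocyte gene Retn and the urothelial genes Krt5 and Upk3a entered the tested genes only through vehicle mouse 17, at 9.26, 8.50 and 8.38. The adipocyte and urothelial means of that mouse are therefore not independent of the minimum for a gene's highest value. Fas itself, which the lpr insertion disrupts without removing its exons, had 7.73 to 8.23 in treated mice (median 7.93). Vehicle mice had 8.09, 8.28 and 7.91, and healthy mice 6.63, 6.85 and 6.78. Every MRL/lpr mouse thus lay above every healthy mouse, whereas treated and vehicle mice overlapped, so the level does not check the drug labels.

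The pooled difference was the mean of the 4 arm means minus the vehicle mean, tested with limma and Benjamini-Hochberg adjustment over all genes. No gene passed an adjusted p of 0.05, which is 0% of the 15035 tested. The smallest adjusted p was 0.0872. At an unadjusted p under 0.05 stood 3663 genes (24.4%), of which 2195 (14.6%) were lower in treated mice and 1468 (9.76%) higher, while the median difference of all genes was -0.01. The absence of calls depended on single libraries. Leaving out MMF mouse 1, whose array weight, a measure of how closely a library follows its group, was 0.0955, gave 1828 calls. Leaving out vehicle mouse 7 gave 1441 calls and leaving out prednisone mouse 23 gave 895, whereas MMF mouse 14 or vehicle mouse 17 left out gave 1 call each. Without vehicle mouse 36, the vehicle mouse farthest from the treated ones, no gene passed, the smallest adjusted p was 0.602 and 1184 genes had an unadjusted p under 0.05. A pool of the MMF, FK506 and Multi-target arms, without prednisone, gave 781 calls, of which 169 were higher and 612 lower. The genes and groups below are therefore described by their values, and none of them passed the adjusted test against vehicle.

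In 133 genes the 12 treated mice and the 3 vehicle mice did not overlap. In 50 of them (0.333% of all genes) every treated mouse lay below every vehicle mouse, with a median difference of -0.52. In 83 (0.552%) every treated mouse lay above every vehicle mouse, with a median difference of 0.36. Of the 133 genes, 131 had an unadjusted p under 0.05, against 24.4% of all genes. They were selected on the same values, so that count adds no support. In the F test described further on, 6 of the 133 differed between arms at an unadjusted p under 0.05, against 5.84% of all genes. This count also moved with the libraries. It was 1144 without vehicle mouse 7, 658 without prednisone mouse 23, 451 without vehicle mouse 17, 235 without vehicle mouse 36 and 218 when Multi-target mouse 39 was left out. Leaving out a library can only keep or raise the number of genes without overlap. The direction of these changes was thus fixed in advance, and only their size depended on the library. Quantile normalization gave 146 such genes, 65 of them shared with the 133, and centring each library on its median gave 144, of which 69 were shared. The genes named next are taken from the 12 with the largest difference in each direction, and since none was called they were chosen after their values were seen. Il18, Cd22, Flt3, Ifnar2, Vdr and Tcf21 are further genes without overlap, outside those 12, that were also chosen after their values were seen.

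**Figure D1:**
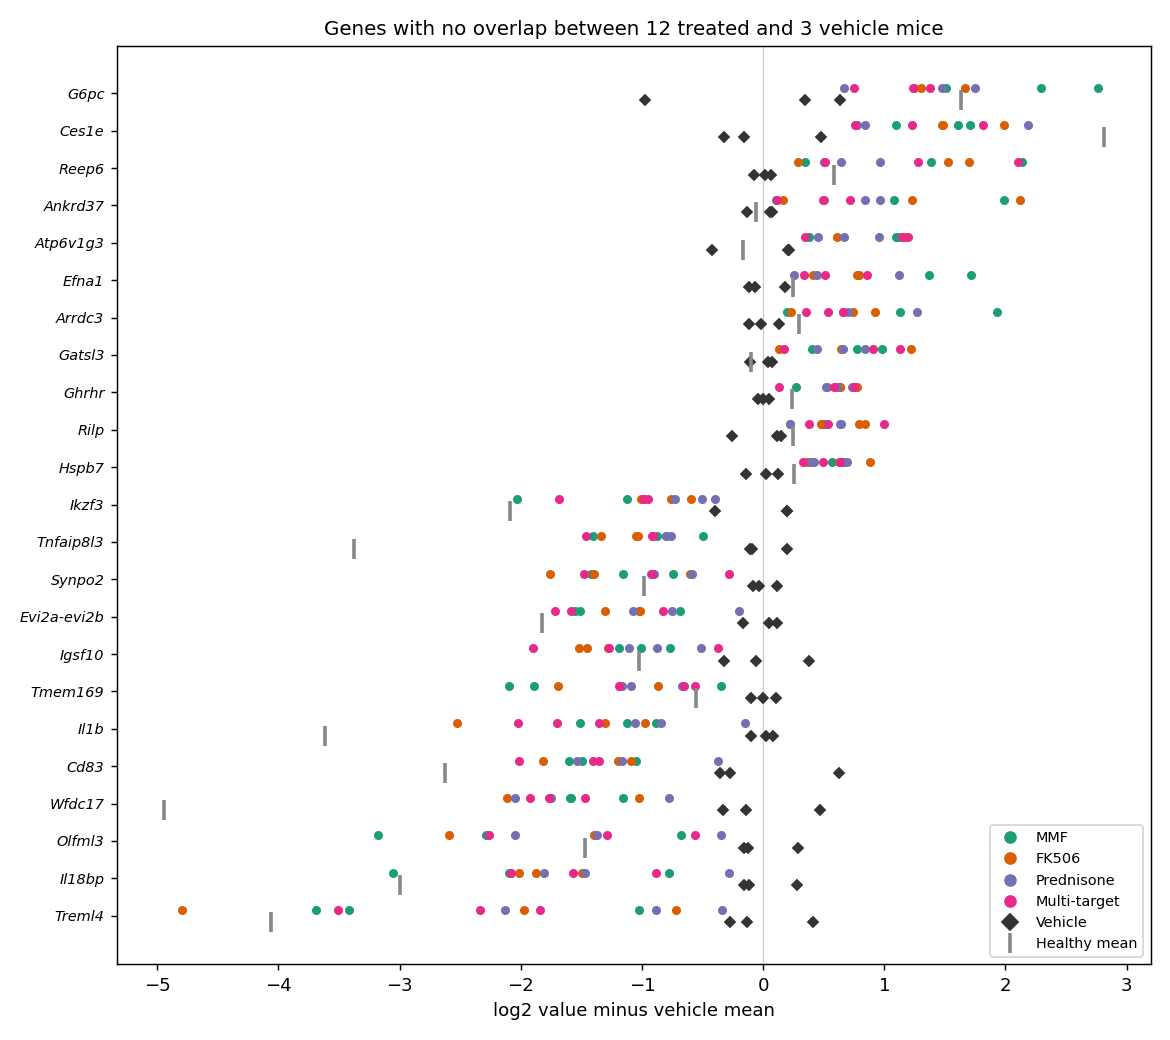
Deposited log2 value of each mouse minus the vehicle mean (horizontal axis, log2 units) for 11 of the 12 genes with the largest positive and the 12 with the largest negative pooled difference among those without overlap. Circles are treated mice coloured by arm, diamonds are vehicle mice and grey ticks are healthy means; treated mice lie above the vehicle mice in the upper 11 genes and below them in the lower 12.

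Of the genes in which treated mice lay lower, Il18bp (chromosome 7, 102014885 to 102018690, mm10) encodes the secreted decoy that neutralises interleukin-18 and is itself induced by interferon-gamma. It had 8.32 in the lowest, 9.68 in the median and 11.09 in the highest treated mouse, against 11.21, 11.65 and 11.25 in vehicle mice 7, 17 and 36. The highest treated value was that of prednisone mouse 23, and MMF mouse 27 was at the healthy level of 8.31 to 8.44. The pooled difference was -1.62 ± 0.37 (SE; limma adjusted p = 0.0872), and it was -1.68 without vehicle mouse 36. By arm the difference from vehicle was -1.98 (MMF), -1.79 (FK506), -1.19 (prednisone) and -1.51 (Multi-target), 4 comparisons that share the same 3 vehicle libraries. Il18, the cytokine that this decoy binds, was also among the 50 genes, with 6.34 to 7.21 in treated mice (median 6.83) against 7.35, 7.52 and 7.97 in vehicle mice. Il1b, the related inflammatory cytokine of activated myeloid cells (chromosome 2, 129364570 to 129371139), had 5.99 to 8.36 in treated mice with a median of 7.30, against 8.53, 8.41 and 8.59 in vehicle mice. Its 3 vehicle values lay close together, and the pooled difference of -1.29 ± 0.31 (limma adjusted p = 0.0872) was -1.25 without vehicle mouse 36. In the arms it was -1.17, -1.60, -0.68 and -1.69 in the order MMF, FK506, prednisone and Multi-target.

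Wfdc17, encoding a small secreted protein made by activated macrophages (chromosome 11, 83703991 to 83706268), had the largest F test p among the arms of the 12 genes named in this direction. Treated mice had 5.86 to 7.20 with a median of 6.30, against 7.65, 7.84 and 8.45 in vehicle mice and 2.86, 3.73 and 2.51 in healthy mice. The arms differed from vehicle by -1.45 (MMF), -1.63 (FK506), -1.53 (prednisone) and -1.72 (Multi-target), each with an SE of 0.38, and the F test among the arms gave an unadjusted p of 0.9. Treated mice lay between the vehicle and the healthy mice, 3.36 above healthy mice (limma adjusted p = 1.1e-05). Wfdc17 entered the tested genes only through MRL/lpr mice, so that call is not independent of the minimum for a gene's highest value. Cd83, a surface protein of mature dendritic cells (chromosome 13, 43784775 to 43803132), had 6.86 to 8.51 in treated mice (median 7.50), against 8.60, 8.52 and 9.50 in vehicle mice. Prednisone mouse 23, at 8.51, lay just below the lowest vehicle mouse at 8.52. Its pooled difference was -1.34 ± 0.25, and -1.03 without vehicle mouse 36.

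Treml4, a receptor of the TREM family on dendritic cells and macrophages, had the largest difference of the 50, -2.22 ± 0.69, with 2.48 to 6.94 in treated mice (median 5.23), against 7.14, 7.69 and 7.0 in vehicle mice. The treated mice were spread widely, and prednisone mouse 29 at 6.94 lay next to the lowest vehicle mouse. Olfml3, a secreted matrix protein, differed by -1.62 ± 0.46. Treated mice had 7.32 to 10.15 (median 9.10), against 10.37, 10.34 and 10.78 in vehicle mice. Healthy mice had 9.03, 8.59 and 9.44, and treated mice were spread on both sides of them. Among lymphocyte genes, Ikzf3, the transcription factor Aiolos of B and T cells, differed by -0.98 ± 0.24, the B cell inhibitory receptor Cd22 by -0.55 ± 0.16, and Flt3, the receptor for the dendritic cell growth factor Flt3 ligand, by -0.55 ± 0.13. The remaining named genes of this direction were Tmem169 (-1.12), Igsf10 (-1.10), Evi2a-evi2b (-1.10), Synpo2 (-1.01) and Tnfaip8l3 (-0.99). Igsf10 entered the tested genes only through vehicle mice. Its highest treated and healthy values, 6.57 and 6.09, lay under the minimum that every tested gene's highest value reached. Its lack of overlap is therefore not independent of that minimum. Ifnar2, a chain of the type I interferon receptor, had 9.79 to 10.39 in treated mice (median 10.18), against 10.57, 10.49 and 10.62 in vehicle mice. Its pooled difference was -0.43 ± 0.10.

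In the other direction, G6pc (chromosome 11, 101367561 to 101377903) encodes the catalytic subunit of glucose-6-phosphatase, which releases free glucose at the last step of gluconeogenesis in proximal tubule and liver. Treated mice had 14.16 in the lowest, 14.92 in the median and 16.25 in the highest mouse, against 13.84, 14.12 and 12.51 in vehicle mice and 14.91, 15.46 and 15.02 in healthy mice. The pooled difference was 1.5 ± 0.32 (limma adjusted p = 0.0872), and 1.01 without vehicle mouse 36, whose value was the lowest of all 18. By arm it was 2.19 (MMF), 1.40 (FK506), 1.30 (prednisone) and 1.12 (Multi-target). Ces1e, a carboxylesterase (chromosome 8, 93201218 to 93229619), had 10.22 to 11.64 in treated mice (median 10.94), against 9.30, 9.94 and 9.14 in vehicle mice and 12.39, 12.27 and 12.16 in healthy mice. Its arms lay between 1.27 and 1.65 above vehicle, and treated mice were 1.40 below healthy mice (limma adjusted p = 0.0032). Ces1e has close paralogs, and how reads were shared among them is not given in the sources used here.

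Reep6, an endoplasmic reticulum membrane protein, had 10.16 or more in every treated mouse (median 10.99), against 9.79, 9.93 and 9.88 in vehicle mice, a difference of 1.11 ± 0.36. Atp6v1g3, a proton pump subunit of acid-secreting intercalated cells, had 11.19 to 12.04 in treated mice (median 11.88), against 11.05, 11.06 and 10.43 in vehicle mice. Atp6v1g3 was also higher in treated than in healthy mice, by 1.03 (limma adjusted p = 0.0036). Vdr, the vitamin D receptor, had 13.66 to 14.33 in treated mice (median 13.98), against 13.49, 13.64 and 13.34 in vehicle mice. The other named genes were Ankrd37 (0.86), Efna1, an ephrin ligand (0.78), the arrestin-domain protein Arrdc3 (0.78), Gatsl3 (0.69), the growth hormone-releasing hormone receptor Ghrhr (0.58), Rilp, a lysosomal Rab effector (0.56), and the small heat shock protein Hspb7 (0.54). Ankrd37 entered the tested genes only through treated mice, since its highest vehicle and healthy values were 6.27 and 6.59. Its lack of overlap is likewise not independent of the minimum for a gene's highest value. Efna1 was one of the 6 genes whose arms differed at an unadjusted p under 0.05, with 1.29 above vehicle in the MMF arm and 0.57 to 0.66 in the others.

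**Figure D2:**
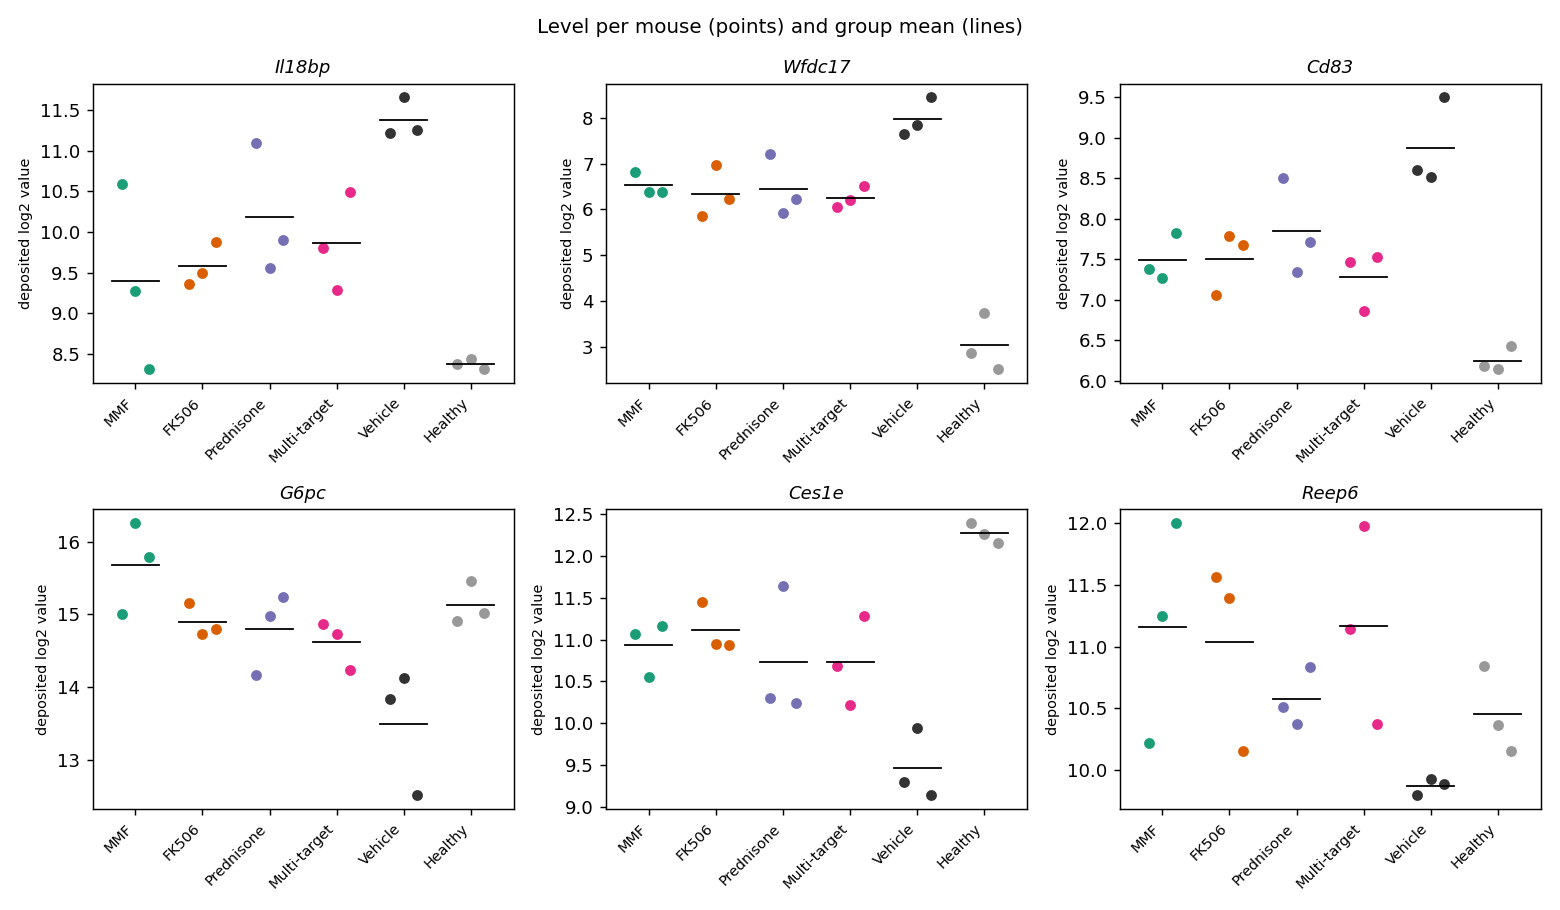
Deposited log2 value per mouse for 3 genes in which treated mice lay below vehicle mice (Il18bp, Wfdc17, Cd83) and 3 in which they lay above (G6pc, Ces1e, Reep6), by group. Points are mice and lines are group means of 3 mice; Wfdc17 lies at 5.86 to 7.20 in treated mice, between 7.65 to 8.45 in vehicle mice and 2.51 to 3.73 in healthy mice.

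The wider picture comes from 38 gene lists. For each, the median pooled difference of its measured members stands beside -0.01 over all genes, and its members with an unadjusted p under 0.05 beside the 14.6% lower and 9.76% higher over all genes. Members of a list vary together from mouse to mouse, and lists and members were chosen with earlier results of these data known. These counts are therefore descriptions, and an excess over all genes is no independent support. The 3 members with the smallest p are given for most lists, and members at the ends of a list's range are named for their values.

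Macrophage and monocyte markers were among the lists with the lowest medians. All 22 members lay lower in treated mice, 21 of them at an unadjusted p under 0.05, with a median of -1.39 and a range from -2.03 to -0.50. Averaged per mouse and expressed relative to healthy mice, the list stood at 0.48 to 3.44 in treated mice (median 1.93), against 2.69, 2.99 and 3.65 in vehicle mice 7, 17 and 36, and 11 of 12 treated mice lay below the lowest vehicle mouse. The exception was prednisone mouse 23 at 3.44. The scavenger receptor Msr1 had 6.50 to 9.03 in treated mice (median 7.41), against 8.55, 8.42 and 9.38 in vehicle mice. Cd68, a lysosomal protein of macrophages, had 7.28 to 10.28 (median 8.59) in treated mice, against 9.74, 9.61 and 10.82, and the mannose receptor Mrc1 had 8.74 to 10.26 (median 9.33), against 9.96, 10.28 and 10.52. In each of the 3 the groups overlapped, and the pooled differences were -1.30, -1.5 and -0.86. The list medians by arm were -1.95 (MMF), -1.35 (FK506), -0.69 (prednisone) and -1.43 (Multi-target). The pooled median was -1.11 without vehicle mouse 36, and -1.40 without vehicle mouse 17, whose piece held adipocyte transcripts. Against healthy mice, 17 of 22 members were still higher in treated mice, compared with 17% of all genes. Msr1, Fcgr1 and Spi1, with healthy means of 5.89, 5.55 and 6.06, entered the tested genes only through MRL/lpr mice. That count is therefore not independent of the minimum for a gene's highest value.

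Fc receptors and complement, which bind and amplify immune complexes, followed with medians of -1.22 and -1.19. Of 7 Fc receptor genes, 5 were lower at an unadjusted p under 0.05. Fcgr3, a low-affinity activating receptor for IgG, had 7.72 to 10.68 in treated mice (median 8.97), against 9.82, 10.18 and 10.74 in vehicle mice. Fcer1g, the signalling chain shared by activating Fc receptors, and the high-affinity receptor Fcgr1 differed by -1.43 and -1.5. Of 14 complement genes, 11 were lower at an unadjusted p under 0.05. C1ra, a protease of the C1 complex, had 9.22 to 11.28 (median 10.08) in treated mice, against 11.10, 11.23 and 11.81 in vehicle mice, and only prednisone mouse 23 lay above the lowest vehicle mouse. Itgb2, the beta chain of the complement receptor integrins, differed by -1.41 ± 0.34 and C2 by -0.67 ± 0.16. C3, the central component, had the lowest value of the list at -1.73, whereas C4b and Cfb were at -0.30 and -0.18. Without vehicle mouse 36 the medians were -0.97 for Fc receptors and -0.86 for complement.

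T cell markers had a median of -0.84, with all 17 members lower and 15 at an unadjusted p under 0.05. Lck, the kinase that starts T cell receptor signalling, had 6.72 to 9.06 in treated mice (median 7.82), against 8.32, 9.30 and 9.44 in vehicle mice. Cd28, the costimulatory receptor, differed by -1.01 ± 0.25 and Cd247, the zeta chain of the receptor complex, by -0.95 ± 0.24. The list mean of FK506 mouse 3 equalled that of vehicle mouse 7 to 2 decimals, at 1.32 above healthy, and 10 of 12 treated mice lay below it. Arm medians were -1.16 (MMF), -0.85 (FK506), -0.54 (prednisone) and -1.07 (Multi-target). The 5 of 11 listed lymph node stroma markers in the table stood at 0.77 to 2.36 above healthy in treated mice, against 1.08, 2.28 and 2.60 in vehicle mice. Their median difference of -0.70 was -0.05 without vehicle mouse 17 and -0.19 without vehicle mouse 36. Madcam1 and Lyve1 entered the tested genes only through vehicle mice 36 and 17, so that difference is not independent of the minimum for a gene's highest value. The part of these stroma markers in the T cell values was not tested. Natural killer and cytotoxic markers, of which 6 of 13 were in the table, had a median of -1.17. Gzmk, a granzyme of memory T cells, had 4.21 to 7.09 (median 5.48) in treated mice, against 6.21, 6.63 and 7.03 in vehicle mice. Its differences by arm ran from -2.10 with MMF to -0.33 with prednisone, and it had one of the smaller F test values among the named genes, an unadjusted p of 0.00081 (adjusted p = 0.74).

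B and plasma cell markers lay nearer to the vehicle level. Their median was -0.15 over 10 measured members, 1 of which, Cd22, was lower at an unadjusted p under 0.05, and the median was 0.27 without vehicle mouse 36. The list mean ran from 1.17 to 2.77 above healthy in treated mice (median 1.89), against 1.48, 1.77 and 2.80 in vehicle mice. Of the 10 members, out of 14 listed, 9 were higher in treated than in healthy mice, compared with 17% of all genes. Cd22, Cd79a, Cd79b, Mzb1, Pou2af1, Derl3 and Irf4, with healthy means of 4.25 to 6.31, entered the tested genes only through MRL/lpr mice. The count is therefore not independent of the minimum for a gene's highest value. Cd79b, part of the B cell receptor, had 6.31 to 7.68 (median 6.82) in treated mice, against 7.04, 7.28 and 8.27 in vehicle mice. Of 10 neutrophil markers, 6 lay below vehicle, 4 of them at an unadjusted p under 0.05, and 4 lay above: S100a9 (0.94), Retnlg (0.75), S100a8 (0.56) and Cxcr2 (0.11). Csf3r, the receptor for the neutrophil growth factor, had 8.02 to 9.37 (median 8.56) in treated mice, against 9.06, 9.51 and 9.27, and Fpr1, which senses bacterial peptides, differed by -1.40 ± 0.51. The list median of -0.55 was -0.04 without vehicle mouse 36.

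**Figure D3:**
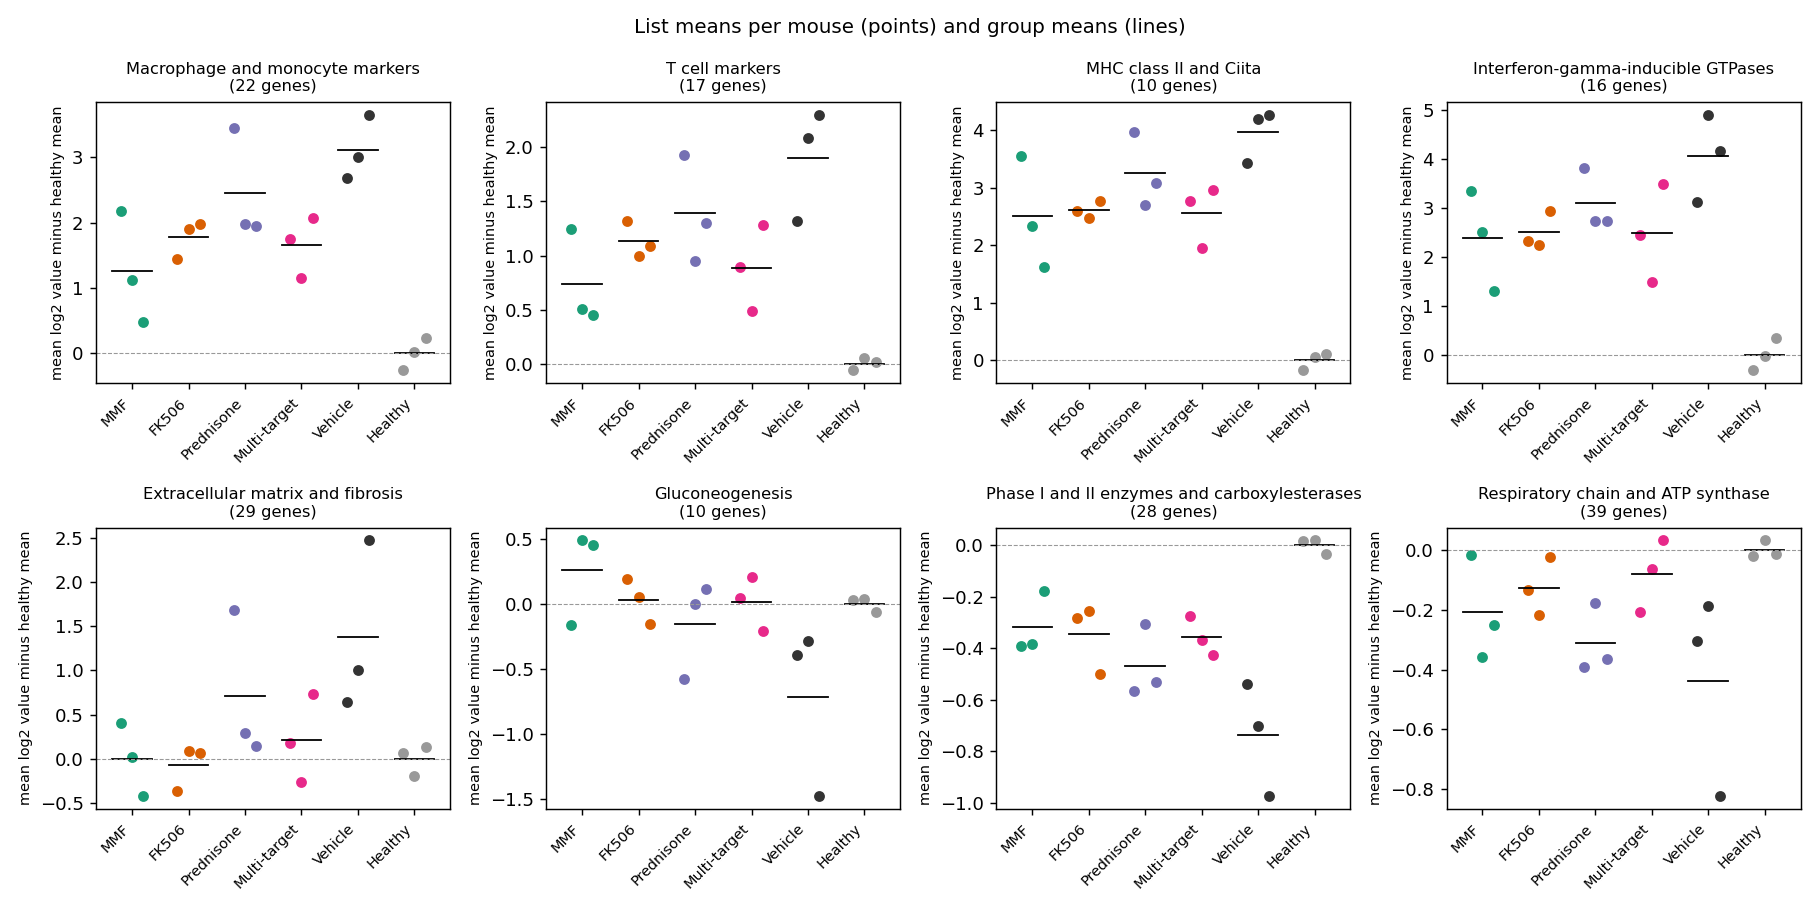
Mean log2 value of a gene list per mouse minus the healthy mean (vertical axis, log2 units) for 8 lists, by group. Points are mice and lines are group means of 3 mice; in the macrophage list 11 of 12 treated mice lie below the lowest vehicle mouse at 2.69, and in the gluconeogenesis list 11 of 12 lie above the highest vehicle mouse at -0.28.

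Antigen presentation genes lay lower in treated mice in every member of both lists measured. MHC class II molecules display extracellular peptides to helper T cells, and Ciita switches their genes on. Ciita (chromosome 16, 10480059 to 10528418) had 8.48 in the lowest, 10.11 in the median and 11.47 in the highest treated mouse, against 11.37, 11.76 and 11.94 in vehicle mice and 7.70, 7.88 and 7.86 in healthy mice. Prednisone mouse 23 alone overlapped the vehicle range, and the pooled difference was -1.65 ± 0.35 (limma adjusted p = 0.0872), or -1.53 without vehicle mouse 36. H2-Aa, a class II chain, and H2-DMb2, a chain of the peptide-loading DM molecule, differed by -1.16 and -1.08, yet stayed 3.59 and 3.97 above healthy mice (adjusted p = 1.1e-05 and 1.6e-06 in limma). H2-DMb2, at 6.08 to 6.37 in healthy mice, entered the tested genes only through MRL/lpr mice. All 10 class II members had an unadjusted p under 0.05, with a median of -1.14. H2 genes of the MRL background are alike in sequence, and the sources used here do not say how reads were shared among them.

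For class I, which displays peptides from inside the cell, all 17 members were lower at an unadjusted p under 0.05, with a median of -1.04 and a narrow range from -1.32 to -0.68. Nlrc5, the class I transactivator (chromosome 8, 94434356 to 94527272), had 9.81 to 11.58 in treated mice (median 10.51), against 11.02, 11.93 and 11.90 in vehicle mice. Healthy mice had 7.63, 8.04 and 8.02, so that treated mice lay 2.67 above healthy mice (limma adjusted p = 1.7e-05). The peptide-loading chaperone Tapbp and the trimming peptidase Erap1 differed by -1.05 and -0.68. All 17 class I members were higher in treated than in healthy mice. The arm medians were -1.08 (MMF), -1.19 (FK506), -0.66 (prednisone) and -1.15 (Multi-target) for class I, and -1.26, -1.32, -0.63 and -1.36 in the same order for class II.

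Interferon-gamma-inducible GTPases, which attack vacuoles of intracellular pathogens, kept their median when vehicle mouse 36 was left out. All 16 were lower at an unadjusted p under 0.05, with a median of -1.39 and a range from -2.0 (Gbp10) to -0.87 (Gbp9), and the median was also -1.39 without that mouse. It was -1.0 without vehicle mouse 17, the mouse with adipocyte and urothelial transcripts, whose list mean was the highest at 4.91 above healthy, and -1.93 without vehicle mouse 7, whose list mean was the lowest of the 3 at 3.13. Treated mice ranged from 1.30 to 3.82 on that measure (median 2.62), and 9 of 12 lay below vehicle mouse 7. Gbp7 had 10.32 to 12.12 in treated mice (median 11.14), against 11.68, 13.12 and 12.51 in vehicle mice and 9.33, 9.32 and 9.79 in healthy mice. Gbp5 had 7.23 to 9.96 (median 8.41), against 8.71, 10.19 and 10.73, and Gbp8 had 7.96 to 9.91 (median 8.70), against 8.95, 10.87 and 10.52. The groups overlapped in all 3, and the pooled differences were -1.27, -1.53 and -1.32. Guanylate-binding protein genes are near copies of one another, so reads may have been split among them.

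Genes induced by type I interferon depended more on that mouse. All 26 lay lower in treated mice, 18 at an unadjusted p under 0.05, and their median of -0.97 was -0.47 without vehicle mouse 36. Stat2, the transcription factor that carries the type I signal to the nucleus, had 10.56 to 11.59 in treated mice (median 10.90), against 11.24, 11.77 and 12.12 in vehicle mice, a difference of -0.73 ± 0.19, or -0.52 without vehicle mouse 36. Ddx58, the cytosolic RNA sensor RIG-I, differed by -0.78 ± 0.21, or -0.49 without vehicle mouse 36, and Ifi27l2a by -0.97 ± 0.23, or -0.62 without vehicle mouse 17. The list ran from -1.84 (Oasl2) to -0.21 (Oas2), and its arm medians were -1.14 (MMF), -1.19 (FK506), -0.64 (prednisone) and -0.79 (Multi-target).

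Promoters of these interferon-induced genes are shown because a written element occurs in every GTPase entry and in part of the type I interferon entries. Interferon-stimulated response elements contain repeats of GAAA spaced by a pair of bases, written GAAANNGAAA, or TTTCNNTTTC on the opposite strand. In the 250 bases before the start site, on either strand, RefSeq promoter sequences (GRCm38.p6, the mm10 assembly) held it in 3.18% of the 11201 tested genes with an entry. It was present in all 9 GTPase genes with an entry out of 16, in 8 of 18 type I interferon genes with an entry (44.4%), in 1 of 40 (2.5%) of the genes in which all treated mice lay lowest and in 2 of 61 (3.28%) of those in which they lay highest. A match is a description of the letters, not a shown binding site. Stretches of 3 promoters follow, on the plus strand, in lower case with the element in capitals, from Gbp7 (chr3:142530253-142530322), Gbp5 (chr3:142496739-142496808) and Stat2 (chr10:128270248-128270315).
Gbp7: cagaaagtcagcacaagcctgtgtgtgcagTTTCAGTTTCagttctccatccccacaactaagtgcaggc
Gbp5: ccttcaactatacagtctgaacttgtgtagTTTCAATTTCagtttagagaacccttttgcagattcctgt
Stat2: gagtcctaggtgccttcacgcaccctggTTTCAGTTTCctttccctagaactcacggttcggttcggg

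Chemokines, which draw leukocytes into tissue, and their receptors had a median of -1.40, and 20 of 23 measured members were lower at an unadjusted p under 0.05. Ccl5, made by T and natural killer cells, showed the widest difference, -2.60 ± 0.76, but it was -1.28 without vehicle mouse 36. Treated mice had 6.25 to 10.53 (median 8.01), against 8.55, 9.75 and 13.13 in vehicle mice 7, 17 and 36, so a single vehicle mouse stood far above all others. Ccl6 was steadier. It had 7.07 to 9.47 (median 8.11) in treated mice, against 8.94, 10.07 and 9.64 in vehicle mice, and its difference of -1.51 ± 0.33 was -1.47 without vehicle mouse 36. Ccl9, another macrophage chemokine, differed by -1.40 ± 0.35. Cxcl12, a constitutive stromal chemokine, was at 0.00. In the TNF and NF-kappaB list, all 18 members lay lower, 13 at an unadjusted p under 0.05, and the median of -0.84 was -0.36 without vehicle mouse 36. The TNF receptor Tnfrsf1b differed by -1.12 (MMF), -1.16 (FK506), -0.21 (prednisone) and -1.31 (Multi-target), with an SE of 0.31 each. Tnfsf13b, the B cell survival factor BAFF, had 6.72 to 8.72 in treated mice (median 7.38), against 7.97, 8.42 and 8.93 in vehicle mice.

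Matrix and injury genes lay lower in treated mice, and vehicle mouse 36 weighed heavily in both. Of 29 matrix genes, all lay lower and 27 had an unadjusted p under 0.05. Their median was -1.08, and -0.57 without that mouse. The list mean ran from -0.42 to 1.69 relative to healthy in treated mice (median 0.12), against 0.64, 1.00 and 2.47 in vehicle mice, and 10 of 12 treated mice lay below vehicle mouse 7. The proteoglycan Bgn had 11.96 to 14.09 in treated mice (median 12.95), against 13.98, 13.69 and 14.67 in vehicle mice and 12.77, 12.35 and 12.85 in healthy mice. Tgfbi, a matrix protein induced by TGF-beta, and the collagen-crosslinking enzyme Loxl1 differed by -1.06 and -1.11, and fibrillar collagens Col3a1 and Col1a1 were at -2.47 and -2.14. In limma's comparison with healthy mice, 3 of the 29 matrix genes were higher in treated mice, below the 17% over all genes.

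Tubular injury markers had a median of -0.84, with 8 of 21 at an unadjusted p under 0.05, but -0.05 without vehicle mouse 36. Their list mean reached 3.17 in that mouse, against 0.74 and 1.06 in vehicle mice 7 and 17, and -0.26 to 2.36 in treated mice. Cd44, an adhesion receptor of injured tubules and leukocytes, had 7.67 to 10.98 in treated mice (median 8.50), against 9.04, 9.95 and 12.38 in vehicle mice. Spp1, encoding osteopontin, had 14.79 to 18.44 (median 16.39), against 19.04, 16.61 and 19.80, and its difference of -2.04 ± 0.62 was -1.38 without vehicle mouse 36. Krt19 differed by -1.89 ± 0.60, but by -1.05 without vehicle mouse 36 and -3.0 without vehicle mouse 7, with 5.31 to 8.64 in treated mice, against 5.78, 8.52 and 9.69. It is also a urothelial keratin, and vehicle mouse 17, with urothelial transcripts, was at 8.52; the part of those transcripts in the result was not tested. Cell cycle genes lay lower in all 30 members, 15 at an unadjusted p under 0.05, with a median of -0.68, or -0.34 without vehicle mouse 36. Cdca8, a subunit of the chromosomal passenger complex, had 7.13 to 8.54 (median 7.45), against 7.62, 8.03 and 8.78 in vehicle mice and 7.93, 7.82 and 8.07 in healthy mice.

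Of the tubule metabolism lists, gluconeogenesis had the highest median of the 38 lists, 0.70, with all 10 members above vehicle and 7 at an unadjusted p under 0.05. The list mean ran from -0.58 to 0.49 relative to healthy in treated mice (median 0.05), against -0.40, -0.28 and -1.48 in vehicle mice, and 11 of 12 treated mice lay above the highest vehicle mouse. Prednisone mouse 23 had the lowest value. Beside G6pc, Pck1, the rate-limiting enzyme of the pathway, had 15.53 to 18.44 in treated mice (median 16.74), against 15.47, 16.38 and 14.91 in vehicle mice, a difference of 1.31 ± 0.37. Slc37a4, which carries glucose-6-phosphate to G6pc, differed by 0.79 ± 0.25, and by 0.33 without vehicle mouse 36. Pck1 is also expressed by adipocytes, and in vehicle mouse 17, with adipocyte transcripts, it was the highest of the vehicle mice. The list median without vehicle mouse 36 was 0.33. By arm it was 0.88 (MMF), 0.68 (FK506), 0.50 (prednisone) and 0.70 (Multi-target).

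Cyp4a enzymes, which hydroxylate fatty acids and are targets of the receptor PPAR-alpha, belong to a list of 11 Cyp4 genes, of which 6 lay above and 5 below vehicle, with 4 higher and 1 lower at an unadjusted p under 0.05. Cyp4a14 (chromosome 4, 115486200 to 115496142) had 13.53 to 16.22 in treated mice (median 14.63), against 13.31, 13.79 and 12.91 in vehicle mice and 14.69, 14.76 and 14.84 in healthy mice. Its difference was 1.46 ± 0.30, or 1.25 without vehicle mouse 36, and 2.23 (MMF), 1.42 (FK506), 0.80 (prednisone) and 1.40 (Multi-target) by arm. Cyp4a10 differed by 0.94 ± 0.21 and Cyp4a31 by 0.56 ± 0.15, while Cyp4a12b lay at -0.61, so that the median of the 11 Cyp4 genes was 0.17, or 0.33 without vehicle mouse 17. Cyp4a genes are close paralogs, and reads may have been split among them. Ppara itself had 12.94 to 14.63 in treated mice (median 13.43), against 12.96, 12.78 and 12.23 in vehicle mice.

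Among 29 genes of fatty acid oxidation and peroxisomes, 9 were higher at an unadjusted p under 0.05 and the median was 0.32, but 0.05 without vehicle mouse 36. Echs1, a mitochondrial beta-oxidation enzyme, had 13.15 to 13.97 in treated mice (median 13.81), against 13.62, 13.44 and 12.44 in vehicle mice. The same shape recurred in the respiratory chain. All 39 of its members lay higher, 17 at an unadjusted p under 0.05, with a median of 0.26 and of 0.05 without that mouse. Ndufb9, a complex I subunit, had 13.19 to 13.85 (median 13.57), against 13.25, 13.40 and 12.70 in vehicle mice. Citric acid cycle enzymes had a median of 0.20, and -0.02 without vehicle mouse 36, with Sdhb at 13.60 to 14.20 (median 14.07), against 13.83, 13.92 and 12.98. In these 3 lists the other 2 vehicle mice lay inside the treated range. Treated mice were lower than healthy mice after adjustment in 12 of 29 fatty acid oxidation genes, 9 of 18 citric acid cycle genes and 4 of 39 respiratory chain genes, compared with 7.19% of all genes.

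Detoxification and amino acid enzymes followed in the same direction. Of 28 phase I and II enzymes and carboxylesterases, 9 were higher at an unadjusted p under 0.05, with a median of 0.44 (0.19 without vehicle mouse 36), and 11 of 12 treated mice had a list mean above the highest vehicle mouse. Gsta3, a glutathione transferase, had 11.62 to 13.17 in treated mice (median 12.52), against 11.70, 12.04 and 11.04 in vehicle mice, and Ugt1a2, a glucuronosyltransferase, differed by 1.37 ± 0.42, or 0.87 without vehicle mouse 36. The list spanned both directions, from Ugt2b37 at -1.18 to Cyp2d9 at 1.53. Of 26 amino acid and organic acid enzymes, 11 were higher at an unadjusted p under 0.05 and the median was 0.39, or 0.05 without vehicle mouse 36. Bhmt, which remethylates homocysteine with betaine, had 9.07 to 12.93 in treated mice (median 11.81), against 9.98, 9.56 and 6.14 in vehicle mice, and its difference of 2.96 ± 0.80 was 1.75 without vehicle mouse 36. Ddc, which makes renal dopamine, had 11.98 to 13.13 (median 12.64), against 12.22, 11.70 and 10.77, and Hpd, an enzyme of tyrosine breakdown, had the largest difference of the list at 3.28.

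Along the nephron, proximal tubule transporters had a median of 0.29 over 25 genes, 7 of them higher at an unadjusted p under 0.05, but -0.04 without vehicle mouse 36. Slc13a3, a dicarboxylate carrier, had 14.21 to 15.50 in treated mice (median 15.11), against 14.47, 14.60 and 13.68 in vehicle mice. The water channel Aqp1 had 15.17 to 16.02 (median 15.85), against 15.38, 15.36 and 13.47, and its difference of 0.99 ± 0.30 was 0.36 without vehicle mouse 36. The loop of Henle and distal tubule list had a median of 0.45 (0.04 without that mouse), with the kinases Stk39 (0.35 ± 0.11) and Wnk4 (0.50 ± 0.17), which control salt transport, among the members of smallest p. Collecting duct genes had a median of 0.16, and 0.17 without it, but -0.01 without vehicle mouse 7 and 0.30 without vehicle mouse 17. Podocyte genes, with a median of -0.08, and endothelial genes, at 0.08, were split. Of 19 podocyte genes 2 were higher and 2 lower at an unadjusted p under 0.05, with the transcription factor Wt1 at 0.58 ± 0.21 and Tcf21 at -0.56 ± 0.22. Tcf21 was another gene without overlap, with 7.44 to 9.15 (median 8.83) in treated mice, against 9.18, 9.18 and 9.16 in vehicle mice.

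Genes tied to the drugs' targets were examined in all 12 mice together. Of 20 glucocorticoid-induced genes, 4 were higher at an unadjusted p under 0.05 and the median was 0.32, but 0.16 without vehicle mouse 7 and 0.17 without the MMF arm. The arm medians were 0.69 (MMF), 0.21 (FK506), 0.26 (prednisone) and 0.08 (Multi-target), so the arm given the glucocorticoid by name was not the highest. Fkbp5, a receptor co-chaperone and standard readout of glucocorticoid action, had 12.58 to 14.72 in treated mice (median 13.62), against 13.34, 12.62 and 12.07 in vehicle mice and 12.16, 12.30 and 12.07 in healthy mice. It differed from vehicle by 1.34, 0.95, 1.16 and 0.87 in the MMF, FK506, prednisone and Multi-target arms (SE 0.48 each), and treated mice were 1.58 above healthy mice (limma adjusted p = 0.0091). Zbtb16 and Tsc22d3, further glucocorticoid targets, differed by 1.05 ± 0.43 (1.59 without vehicle mouse 17) and 0.20 ± 0.26. Calcineurin and NFAT genes had a median of -0.39 (-0.23 without vehicle mouse 36), with 8 of 19 lower and 1 higher at an unadjusted p under 0.05. Rcan1, a feedback inhibitor induced by calcineurin signalling, had 10.37 to 12.54 in treated mice (median 11.61), against 12.10, 12.39 and 13.10 in vehicle mice, with -1.38 (MMF), -1.05 (FK506), -0.83 (prednisone) and -0.51 (Multi-target) by arm. Il2rg, the common chain of interleukin receptors, differed by -1.44 ± 0.46. Purine synthesis genes had a median of 0.07, with 3 of 16 higher and 1 lower at an unadjusted p under 0.05. The MMF targets Impdh1 and Impdh2 were at -0.21 ± 0.14 and 0.04 ± 0.14. The 1 lower gene, the purine enzyme Atic, had 10.05 to 10.80 (median 10.37), against 10.61, 10.65 and 11.24 in vehicle mice. Its difference of -0.45 was -0.24 without vehicle mouse 36. Adssl1 and Paics lay above vehicle by 0.85 and 0.27, or by 0.53 and 0.17 without that mouse.

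Differences among the 4 arms were tested with a moderated F test of the 4 arm means, in which vehicle and healthy mice enter only through the shared estimate of spread. No gene passed after adjustment (0%; smallest limma adjusted p 0.094), and 878 genes (5.84%) had an unadjusted p under 0.05. Omitting MMF mouse 1 gave 1131 calls. Of the 5 genes with the smallest p, 4 had the MMF arm below the other 3. Dusp14, a phosphatase, had 9.36, 8.94 and 8.99 in MMF mice 1, 14 and 27, against 9.76 to 10.02 in the other 9 treated mice, so the MMF mice lay apart. Thap2, Ppp1r10 and Mavs, the adaptor of RNA sensing, were at -0.81, -0.97 and -0.37 from vehicle in the MMF arm and between -0.14 and 0.14 in the others. The fifth, Clec4e, a macrophage receptor for damaged cells and mycobacterial glycolipid, was at -1.81 (MMF), -1.12 (FK506), 0.01 (prednisone) and -1.86 (Multi-target), with an SE of 0.32 (moderated F test in limma, unadjusted p = 9.8e-05 and adjusted p = 0.37). Prednisone mice 23, 29 and 35 had 8.77, 8.34 and 7.66 for this gene, against 7.92, 8.38 and 8.42 in vehicle mice. In the macrophage list mean, prednisone mouse 23 stood apart from the other prednisone mice 29 and 35, at 3.44 above healthy against 1.98 and 1.94, so the arm's values in that list rest in part on 1 mouse. The difference of a list between arms was not tested.

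**Figure D4:**
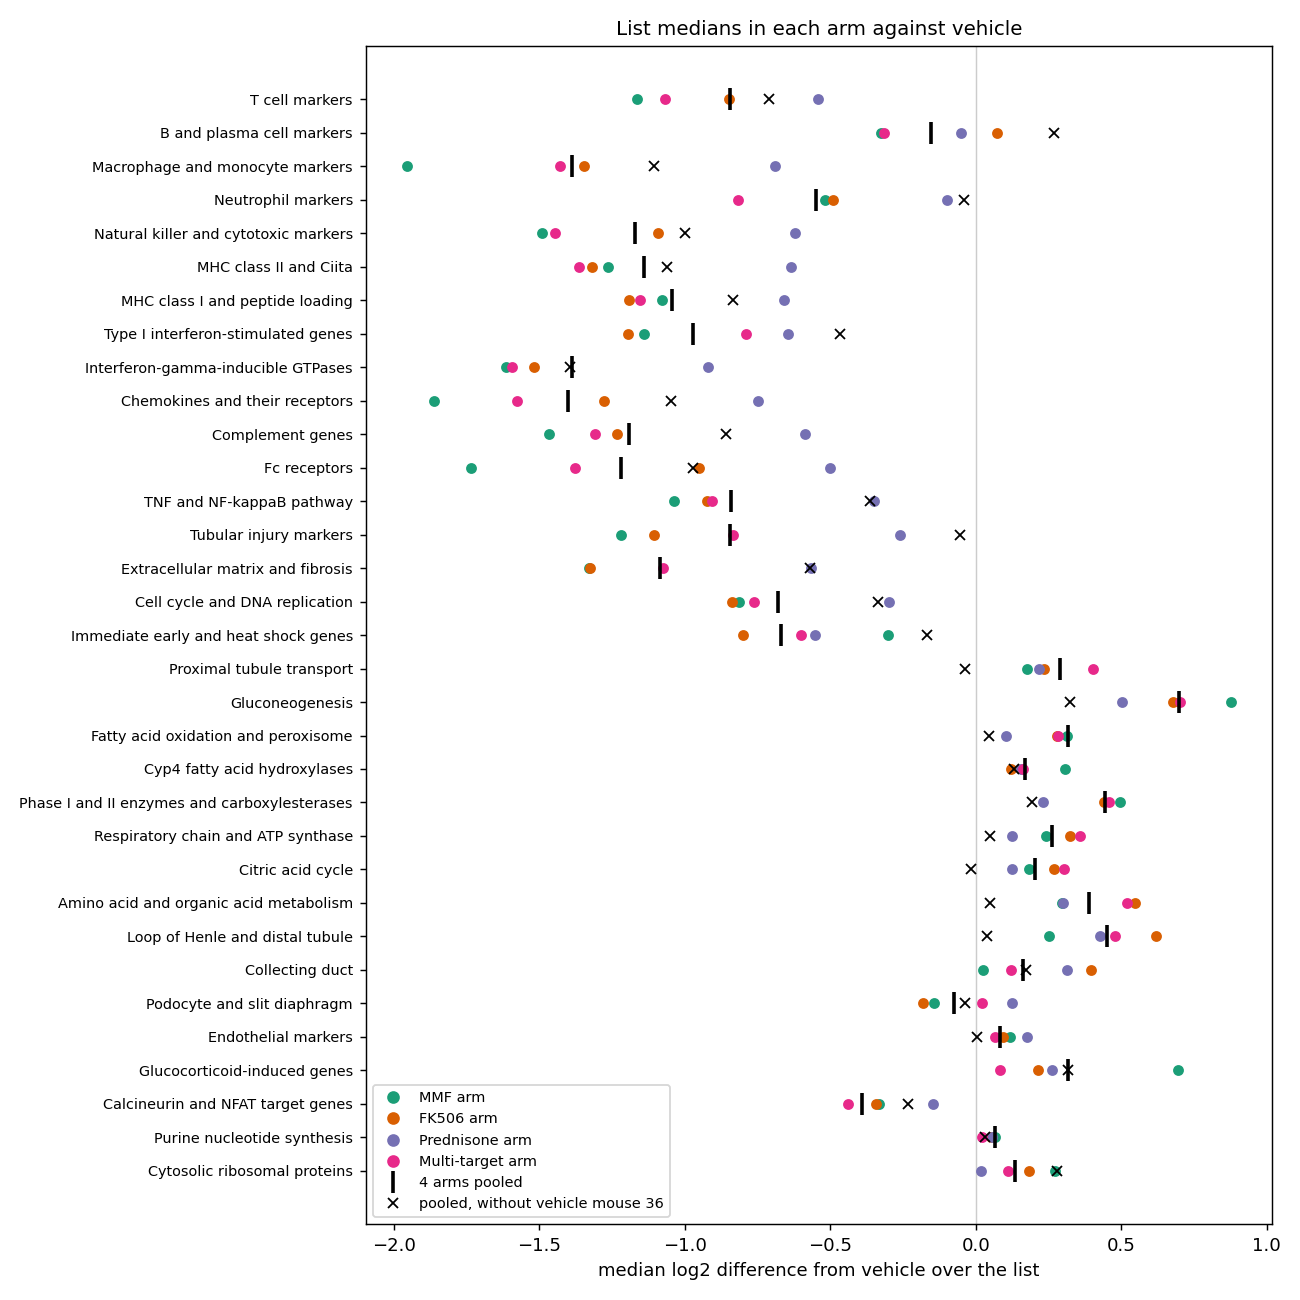
Median log2 difference from vehicle over the members of each of 33 gene lists (horizontal axis, log2 units) for each treated arm (circles), the 4 arms pooled (black bars) and the pool without vehicle mouse 36 (crosses). The arms share the same 3 vehicle mice; in the macrophage list they run from -1.95 (MMF) to -0.69 (prednisone), and in gluconeogenesis from 0.88 (MMF) to 0.50 (prednisone).

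Set against healthy mice, treated kidneys differed in 3635 genes by limma at an adjusted p under 0.05, 2554 higher (17%) and 1081 lower (7.19%). Quantile normalization gave 1390 higher of 3025 calls and median centring 1530 higher of 3564, so the balance between directions depends on the scaling. Leaving out healthy mouse 1, 2 or 3 gave 1361, 1440 or 1500 calls. Immune genes made up part of the higher side. All 17 class I genes, 8 of 10 class II genes, 13 of 16 GTPases, 17 of 26 type I interferon genes and 11 of 17 T cell markers were higher in treated than in healthy mice. Among these T cell markers, Cd3d, Cd2, Cd28, Pdcd1, Lat, Lck and Cd6 had healthy means of 2.83 to 6.14. They entered the tested genes only through MRL/lpr mice, as did H2-DMb2 among the class II genes. Such counts are therefore not independent of the minimum for a gene's highest value. The median over class II genes was 3.26 above healthy, while it was 1.14 below vehicle. Fpr1 was 5.10 above healthy (adjusted p = 2.2e-05) and Tnfaip8l3 2.39 above (adjusted p = 6.2e-06). Healthy mice had 1.06, 0.27 and 0.18 for Fpr1 and 3.86, 4.66 and 4.09 for Tnfaip8l3. Both genes thus entered the tested genes only through MRL/lpr mice, where they are high. Their calls are not independent of the minimum for a gene's highest value. The size of the Fpr1 difference also rests on very low healthy values. Ribosomal protein genes were also higher in 25 of 31 cases, at a median of 0.48, against 0.14 above vehicle, where none had an unadjusted p under 0.05. On the lower side stood Ces1e and the peroxisomal enzyme Cat, at -0.75 (adjusted p = 0.011). G6pc, Cyp4a14 and Pck1 were at -0.13, 0.03 and -0.34 from healthy, with adjusted p of 0.79, 0.95 and 0.53. Genotype and drug differ together in this comparison.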

How the data were processed

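Kidney cortex RNA of 18 mice was measured, 3 in each of 6 groups taken from the sample titles. The authors deposited 1 log2 level for each gene and library. Of tools and builds, limma and mm10 appear in the submitters' processing notes, whereas an aligner or a counter is not given in the sources used here. For 11089 of 15035 genes, raising 2 to the level and dividing by 1 factor for each library gave whole reads in at least 17 libraries (tolerance 0.01 reads). The other 3946 are not whole. Of their 4079 values under 100 reads, 60.8% become whole when squared, as a mean of log2 values over a pair of rows would, so their levels may be such means, and 40 of the 139 entries in the list of named genes are of this kind. A count model was therefore not used.

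A limma 3.58.1 model (R 4.3.3) of 6 group means was fitted to all 18 libraries without filter or pseudocount. It had 12 residual degrees of freedom, its prior variance followed the mean level, and it was tested on simulated data. Comparisons were the mean of the 4 treated arms against vehicle and against healthy, and an F test among the arms, each with Benjamini-Hochberg adjustment of p-values over all genes at 0.05. In the text ± is the standard error of the fit. Named were the 12 largest differences in each direction among genes without overlap (leaving out numbered gene models, clones and dates), up to 3 members of smallest p per list, the check genes Fas, Impdh1, Impdh2, Rcan1, Fkbp5 and Tsc22d3, and the 5 genes of smallest F p. The rule asked for called genes first; with none called, that condition was dropped. Genes at the ends of lists, and Il18, Flt3, Ifnar2, Vdr and Hpd, were chosen after their values were seen. In 23 rows a spreadsheet had turned a gene name into a date; these were tested and are not named. Gene positions are from GENCODE M21 (mm10). Members and lists were chosen with earlier results of these data known. A result on 1 further selected gene is not reported here.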

Additional observations from a re-analysis of the deposited data

How the results depend on the processing

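The count of 0 genes called against vehicle also held in the fit of the 15 MRL/lpr libraries alone, with the 12 treated libraries as 1 group, without the MMF, FK506 or Multi-target arm, under both scalings, with a filter, with a pseudocount, with other variance priors and without vehicle mouse 17 and FK506 mouse 12 together. It did not hold without the prednisone arm (781 calls), with limma array weights (2905, with a convergence warning) or without vehicle mouse 36, prednisone mouse 23 and MMF mouse 1 together (381), an alternative added after seeing the data. Leaving out 1 library at a time gave 0 to 1828 calls. Calls among the arms were 7099 with array weights, 1661 without those 3 libraries and 0 to 1131 with 1 library left out. Calls against healthy mice were 9956, 6458 and 1361 to 5273 in the same order. Genes without overlap numbered 1100 without those 3 libraries and 133 to 1144 with 1 library left out, a count that leaving out libraries can only keep or raise. The cause was not tested. Of 4376 recomputed gene differences, 454 newly passed the threshold and 8 turned round. With 1 library left out, Krt5 ranged from -1.589 to 0.418 (highest without vehicle mouse 17), Lyve1 from -1.621 to 0.237 (likewise), Impdh2 from -0.133 (likewise) to 0.221 and Hba-a1 from -0.147 (without vehicle mouse 7) to 1.018. Without vehicle mouse 17 and FK506 mouse 12 together, Krt5 was 0.436, Lyve1 0.202 and Impdh2 -0.166, and with array weights Impdh1 was 0.014. Of 1252 recomputed list medians, 22 moved beyond the spread between vehicle mice, in 7 lists. That spread, the standard deviation of the 3 vehicle list means, is wide where 1 vehicle mouse stands apart, as in tubular injury markers (1.32). In 8 lists the median changed sign in at least 1 alternative. For 2 lists the filter left no member. No paired analysis was made because the mouse numbers pair no samples, and treated and healthy mice that share a number differ in genotype. Vehicle was measured in 3 mice, which limits the precision of each difference from it; the part of read depth was not tested.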

Other observations

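Immediate early and heat shock genes, which are switched on quickly by stress and growth signals, differed from vehicle by a median of -0.67 over 19 genes, 3 of them at an unadjusted p under 0.05, and by -0.17 without vehicle mouse 36. Their list mean stood at -0.08 to 1.26 above healthy in treated mice (median 0.35), against 0.39, 0.97 and 1.73 in vehicle mice 7, 17 and 36. Egr2, a transcription factor of this class, had 0.57 to 7.31 in treated mice (median 4.78), against 6.01, 6.90 and 8.60 in vehicle mice, and the heat shock co-chaperone Dnajb1 had 10.51 to 11.93 (median 10.83), against 10.97, 12.32 and 11.85. Red blood cell genes, of which 6 of 8 were in the table, ranged from -0.86 to 0.55 relative to healthy in treated mice (median -0.48), against -0.92, -0.27 and -0.50 in vehicle mice.

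The adipocyte list had a median of -1.0 against vehicle and of 0.65 without vehicle mouse 17, and the urothelial list -0.57 and 0.42. Retn, an adipocyte hormone, was at 9.26 in that mouse, against 0.14 to 3.99 in treated mice and 2.53 and 3.89 in vehicle mice 7 and 36. Hsd3b1, a steroid-synthesis enzyme of the adrenal, had its highest value of 11.76 among treated mice, whose median was 5.13, against 3.40, 4.35 and 1.16 in vehicle mice.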
